A study of Caenorhabditis elegans with 13 samples.

Results

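The comparison described here set met-2 set-25 mutant larvae directly against cec-4 mutant larvae. The former lack MET-2 and SET-25, enzymes that methylate lysine 9 of histone H3 (H3K9). The latter lack a protein that tethers the methylated chromatin to the nuclear edge. Gene expression was measured by mRNA sequencing of whole Caenorhabditis elegans larvae at the first larval stage (L1). Of the 13 samples in the series, 6 belonged to this comparison, 3 from each mutant, and the wild type samples took no part in the ratio. A gene was included when the mean of its levels in the 2 mutants was above 1 RPKM (read density scaled to transcript length and library size), which kept 16481 of 46170 genes. The lowest mean kept was 1.00033 RPKM and the highest left out was 0.999882 RPKM. The measure throughout is the log2 ratio of met-2 set-25 over cec-4, after adding 0.1 RPKM to each level, minus the median log2 ratio of all included genes, which was -0.07. A gene is called higher or lower when this centred ratio reached 1 in either direction, which is a 2-fold difference.

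The met-2 set-25 group was strain EKM99, which carries met-2(n4256) and set-25(n5021), both on chromosome III. The cec-4 group was strain RB2301, which carries cec-4(ok3124) on chromosome IV. Larvae in which dpy-27, a subunit of the dosage compensation complex, had been depleted by RNAi (4 samples) and N2 wild type larvae (3 samples) made up the rest of the series and are given here only as points of orientation. All larvae except those treated with dpy-27(RNAi) were labelled as control vector RNAi, and all were hermaphrodites synchronized as L1 larvae and fed for 3 hours before RNA extraction. Each genotype was represented by 1 strain, so the mutations and the rest of that strain's genome cannot be told apart. The study asked how tethering of heterochromatin to the nuclear lamina affects repression of the X chromosomes.

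MET-2 adds the first methyl groups to H3K9, and SET-25 adds the last, which gives the trimethylated form. CEC-4 is a chromodomain protein at the inner nuclear membrane that binds methylated H3K9 and holds chromosome arms at the nuclear periphery. In cec-4 mutants the methyl mark itself is known to persist. Anchoring through CEC-4 should thus be lost in both groups, and the mark only in met-2 set-25. Methylation was not measured in these larvae. In adult nuclei the paper saw no trimethyl signal in set-25 mutants. It also proposes that enzymes besides SET-25 add this form in differentiated cells. H3K9 methylation in this species lies mainly on repeats and on the arms of the autosomes.

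The labels call the samples of a group biological replicates, but the deposited levels were means over each group, made by the authors. Neither the spread between replicates nor the sequencing depth can be read from them, so every difference below is a description of group means without a replicate check, and no p-value is given. As a measure of how far group means differ elsewhere in the series, 8.94% of protein-coding genes were past 2-fold between met-2 set-25 and cec-4, against 4.99% between dpy-27(RNAi) and wild type, a pair that shares no sample with it. Past 4-fold the shares were 2.76% between met-2 set-25 and cec-4 and 0.777% between dpy-27(RNAi) and wild type. Set against dpy-27(RNAi), the share past 2-fold was 6.85% for met-2 set-25 and 4.37% for cec-4. Against wild type it was 12.41% for met-2 set-25 and 9.36% for cec-4. These shares rest on group means. From its own test over replicates against wild type, the paper reports few changed genes in cec-4 and more in met-2 set-25.

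The mutated genes were looked at first. The cec-4 transcript stood at 22.9 RPKM in met-2 set-25, against 7.02 RPKM in cec-4 mutants, 14.5 RPKM in dpy-27(RNAi) and 18.2 RPKM in wild type, so its lowest level was in the strain that carries the cec-4 mutation (centred log2 ratio 1.76). set-25 stood at 4.15 RPKM in met-2 set-25, against 7.78 RPKM in cec-4, 7.02 RPKM in dpy-27(RNAi) and 8.93 RPKM in wild type (-0.82). met-2 stood at 13.7 RPKM in met-2 set-25, against 18.2 RPKM in cec-4, 15.9 RPKM in dpy-27(RNAi) and 17.6 RPKM in wild type (-0.34). Both were lowest in the strain in which they are mutated, without reaching 2-fold against cec-4, and transcripts of a mutated gene can still be made.

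Across all genes 1381 (8.38%) were higher and 1317 (7.99%) were lower in met-2 set-25 than in cec-4. Very short genes weighed heavily in these counts. Of 2296 genes with under 200 exonic bases, mostly noncoding RNAs that polyA libraries capture poorly, 27.7% were higher and 29.0% were lower, against 5.23% higher and 4.55% lower among 14030 longer genes. The description therefore turns on the 13295 protein-coding genes, of which 592 (4.45%) were higher and 596 (4.48%) were lower. These 2 shares are the background set beside the gene groups below, of which some also hold pseudogenes or other genes not annotated as protein-coding. All these groups were chosen with earlier results of these data known or after values were seen, so their counts are descriptions. The level filter uses the mean of both mutants, so in any group a gene low in either mutant could pass through the other alone.

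**Figure D1:**
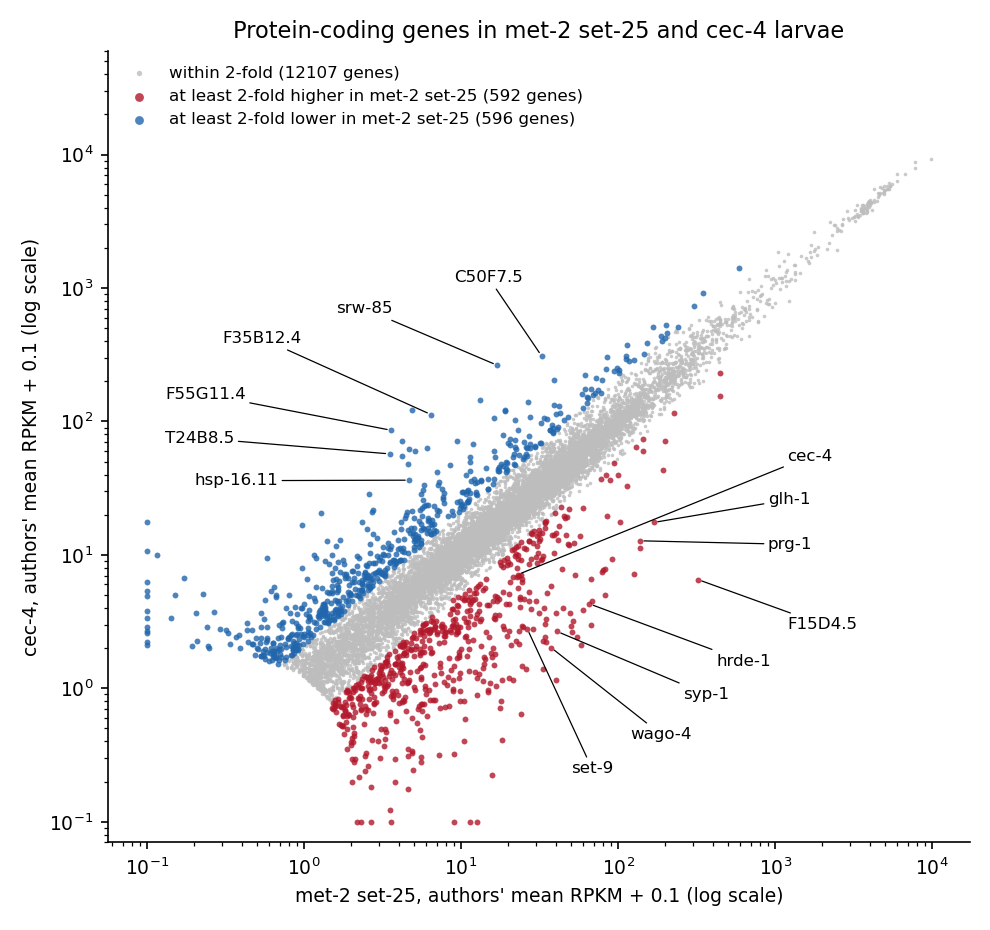
Levels of the protein-coding genes in met-2 set-25 (x axis) and cec-4 (y axis), as the authors' mean RPKM plus 0.1 on log scales, with 1 point per gene. The 592 genes higher in met-2 set-25 (red) include F15D4.5 at 322 RPKM against 6.43 RPKM, and the 596 lower genes (blue) include srw-85 at 16.9 RPKM against 264 RPKM.

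On the met-2 set-25 side were many genes of the germline. L1 larvae hold only the germline precursor cells and their first daughters among the somatic cells, and meiosis lies far ahead of this stage. Of 24 germline markers, 21 were included, and 9 of these (42.9%) were higher and none was lower, with a median of 0.43. The median was 0.26 with no level filter and 0.43 with levels above 1 RPKM in each mutant. Over the 11 markers with a mean above 5 RPKM it was 2.40, and 7 of these were higher. That filter uses the mean of the 2 mutants, so a marker low in cec-4 could pass it through met-2 set-25 alone. All 9 higher markers were at their highest in met-2 set-25 among the 4 groups. For all 9 both dpy-27(RNAi) and wild type lay nearer to cec-4. The summed level of the 24 markers was 395 RPKM in met-2 set-25, against 115.4 RPKM in cec-4, 141 RPKM in dpy-27(RNAi) and 127 RPKM in wild type. In RNA from whole larvae, more cells of a type and more RNA per cell cannot be told apart.

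The germline genes that were higher covered several roles. glh-1, which encodes a Vasa-like helicase of the P granules (the RNA-protein bodies of germ cells), was at 168 RPKM in met-2 set-25, against 17.4 RPKM in cec-4, 26.8 RPKM in dpy-27(RNAi) and 25.5 RPKM in wild type, a 10.1-fold difference. pgl-1, a P granule scaffold gene, was at 25.03 RPKM in met-2 set-25, against 4.55 RPKM in cec-4, 7.51 RPKM in dpy-27(RNAi) and 3.45 RPKM in wild type. Its paralog pgl-3 was at 7.21 RPKM in met-2 set-25 and 1.33 RPKM in cec-4, and gld-1, a translational repressor of germ cell development, at 23.6 RPKM in met-2 set-25 and 4.57 RPKM in cec-4. The others act on meiotic chromosomes. syp-1, a central component of the synaptonemal complex that holds paired chromosomes together, showed the largest ratio of the list, with 40.6 RPKM in met-2 set-25, against 2.57 RPKM in cec-4, 2.95 RPKM in dpy-27(RNAi) and 2.47 RPKM in wild type (15.98-fold). The chromosome axis genes htp-3, him-3 and htp-1 had ratios of 3.33, 3.28 and 1.53, and the meiotic cohesin gene rec-8 had 2.31.

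The rest of the list did not follow. glh-2, glh-3 and glh-4, the closest relatives of glh-1, had ratios of -0.17, -0.03 and -0.39, and pgl-2 had 0.21. The Polycomb-like genes mes-2, mes-3 and mes-6 had 0.12, 0.03 and 0.11. mes-4, an H3K36 methyltransferase gene of the germline, was at 7.24 RPKM in met-2 set-25 and 4.18 RPKM in cec-4 (0.85), but its wild type level was higher still, at 8.22 RPKM. nos-1 and xnd-1, which act in the primordial germ cells, had 0.04 and 0.05, and the early P granule genes meg-1, meg-2 and nos-2 stayed under 1 RPKM in all 4 groups. Germline markers were thus divided into a set that was several-fold higher in met-2 set-25 and a set that stayed within 2-fold between the mutants.

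**Figure D2:**
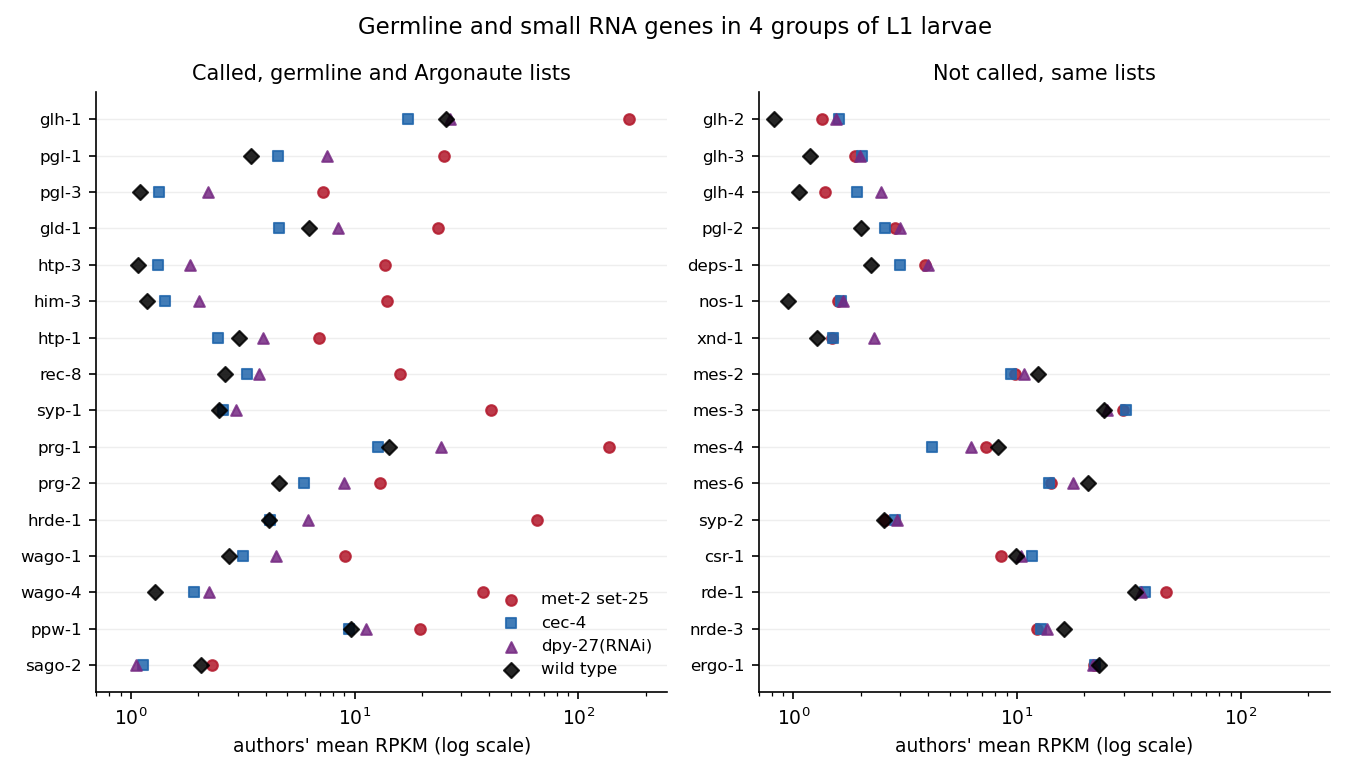
Levels of 16 called genes (left) and 16 genes not called (right) of the germline and Argonaute lists, as the authors' mean RPKM on a log scale, in met-2 set-25 (circles), cec-4 (squares), dpy-27(RNAi) (triangles) and wild type (diamonds). On the left met-2 set-25 was the highest of the 4 groups for every gene, with sago-2 at 2.30 RPKM closest to wild type at 2.06 RPKM, and on the right no gene reached 2-fold between met-2 set-25 and cec-4.

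A list of meiotic chromosome genes gave the same division. This list was chosen after values were seen, so its counts only describe it. The germline, Argonaute, meiotic and piRNA lists share members, so their counts overlap. Of 32 included genes 14 were higher and none was lower, with a median of 0.56 (0.48 with no level filter). Of the 12 with a mean above 5 RPKM 8 were higher, with a median of 2.93. Here too a gene low in cec-4 could pass the filter through met-2 set-25 alone. dsb-2, required for the DNA breaks that start recombination, was at 25.8 RPKM in met-2 set-25, against 1.30 RPKM in cec-4, 2.55 RPKM in dpy-27(RNAi) and 2.004 RPKM in wild type (19.3-fold). The cohesin gene coh-4 was at 12.5 RPKM in met-2 set-25, against 1.09 RPKM in cec-4. D1081.9, named zhp-2 in the current annotation, was at 33.0 RPKM in met-2 set-25 and 2.17 RPKM in cec-4. In contrast syp-2, whose product works in the same complex as that of syp-1, was at 2.57 RPKM in met-2 set-25 and 2.86 RPKM in cec-4, and spo-11, which makes the meiotic breaks, had a ratio of -0.02.

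Argonautes, the proteins that small RNAs guide to their targets, were divided along the same line. Of 27 included Argonautes and small RNA factors 7 were higher and none was lower, with a median of 0.38. wago-4, a germline Argonaute that passes RNAi to the next generation, was at 37.3 RPKM in met-2 set-25, against 1.92 RPKM in cec-4, 2.24 RPKM in dpy-27(RNAi) and 1.28 RPKM in wild type (19.4-fold). hrde-1, the nuclear Argonaute of heritable silencing, was at 65.4 RPKM in met-2 set-25, against 4.20 RPKM in cec-4, 6.19 RPKM in dpy-27(RNAi) and 4.12 RPKM in wild type (15.98-fold). prg-1, the Piwi protein that binds piRNAs, was at 137 RPKM in met-2 set-25, against 12.7 RPKM in cec-4, 24.4 RPKM in dpy-27(RNAi) and 14.3 RPKM in wild type (11.3-fold). Each of these 3 genes was at least 5-fold above its level in every other group. The other 4 were closer to the threshold, with ratios of 1.55 for wago-1, 1.19 for prg-2, 1.11 for ppw-1 and 1.03 for sago-2. prg-2 closely resembles prg-1 in sequence and is annotated as a pseudogene, so reads could be split between the pair. The microRNA Argonautes alg-1 and alg-2 had -0.03 and 0.25, and csr-1, an Argonaute that protects germline transcripts, was at 8.45 RPKM in met-2 set-25 and 11.6 RPKM in cec-4 (-0.39).

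Among 20 piRNA pathway genes, a list also chosen after values were seen, 9 were higher and none was lower. Y48G1C.1, named pid-2 in the current annotation, was at 91.3 RPKM in met-2 set-25, against 9.22 RPKM in cec-4, 16.9 RPKM in dpy-27(RNAi) and 17.3 RPKM in wild type. tofu-4, a gene needed for piRNA transcription, was at 4.95 RPKM in met-2 set-25 and 0.921 RPKM in cec-4. Over the germline, Argonaute, meiotic and piRNA lists together, 92 distinct genes were included and 32 were higher. met-2 set-25 was the highest of the 4 groups for all 32, and for 30 of them dpy-27(RNAi) and wild type both lay nearer to cec-4. Further genes at high levels, chosen after values were seen, were snpc-1.2, named for a complex that activates small RNA genes, with 126 RPKM in met-2 set-25 and 7.03 RPKM in cec-4, and D1081.7, named lotr-1 in the current annotation, with 57.8 RPKM in met-2 set-25 and 2.02 RPKM in cec-4.

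Most markers of later germline stages were too low to be compared. Of 12 sperm markers 10 were below the level filter, among them gsp-3, listed at 0 in both mutants, and gsp-4, at 0.315 RPKM in met-2 set-25 and 0.358 RPKM in cec-4. Of the 2 included ones spe-26 had a ratio of -0.65, and the higher one was peel-1, a toxin gene expressed in sperm, at 2.36 RPKM in met-2 set-25 and 0.142 RPKM in cec-4. The 6 yolk protein genes vit-1 to vit-6 stayed under 1 RPKM in all groups. Among 11 included oocyte and embryo markers only cbd-1, which encodes a chitin-binding eggshell protein, was called, at 20.6 RPKM in met-2 set-25, against 2.02 RPKM in cec-4, 2.63 RPKM in dpy-27(RNAi) and 1.16 RPKM in wild type. oma-1 and oma-2, which act in maturing oocytes, had ratios of 0.18 and 0.08.

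Markers of the somatic tissues showed no gene past 2-fold in either direction. The medians were -0.12 over 13 intestine markers, -0.24 over 13 body wall muscle markers, 0.22 over 8 pharynx markers, -0.12 over 7 hypodermis markers and -0.07 over 20 neuron markers. The largest single ratios were 0.90 for pgp-1 and -0.79 for cpr-1, both of the intestine. unc-54, the major myosin of body wall muscle, was at 936 RPKM in met-2 set-25 and 997 RPKM in cec-4, and elt-2, the intestinal GATA factor, at 35.96 RPKM in met-2 set-25 and 29.5 RPKM in cec-4. The summed level of the neuron markers was 2004 RPKM in met-2 set-25, against 2462 RPKM in cec-4, 1970 RPKM in dpy-27(RNAi) and 1671 RPKM in wild type.

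Among 24 genes for H3K9 methyltransferases, chromodomain proteins and lamina proteins, 3 were higher and none was lower. Besides cec-4 itself these were set-9 and lin-13. set-9, a gene with SET and PHD domains, was at 26.3 RPKM in met-2 set-25, against 2.70 RPKM in cec-4, 3.09 RPKM in dpy-27(RNAi) and 2.30 RPKM in wild type (9.89-fold). Its near-identical paralog set-26 was at 23.4 RPKM in met-2 set-25 and 24.3 RPKM in cec-4, and since reads could be split between the pair, the set-9 value is uncertain. lin-13, which encodes a zinc finger protein that works with heterochromatin protein HPL-2, was at 77.4 RPKM in met-2 set-25, against 37.2 RPKM in cec-4, 38.9 RPKM in dpy-27(RNAi) and 37.96 RPKM in wild type. The lin-13 gene lies within 1 Mb of the mutated met-2 gene. hpl-2 itself had a ratio of 0.02, the lamin gene lmn-1 had 0.12 and lem-2 had 0.42. set-24, another SET domain gene, was at 15.3 RPKM in met-2 set-25 and 0.997 RPKM in cec-4. The 10 genes of the dosage compensation complex and its loading factors had none past 2-fold and a median of 0.04, with dpy-27 at 33.2 RPKM in met-2 set-25 and 36.4 RPKM in cec-4.

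Histone genes gave 6 higher and 1 lower among 21 included, with a median of 0.38 (0.51 after centring protein-coding genes within 20 bins of exonic length). his-74, an H3.3 histone variant gene, was at 82.6 RPKM in met-2 set-25, against 7.76 RPKM in cec-4, 13.3 RPKM in dpy-27(RNAi) and 7.91 RPKM in wild type (11.02-fold). The other 5 were replication-dependent core histone genes at low levels, such as his-60 with 4.73 RPKM in met-2 set-25 and 1.84 RPKM in cec-4. Their transcripts lack polyA tails and exist in many near-identical copies, so these values are uncertain. The lower gene was his-3, at 1.33 RPKM in met-2 set-25 and 3.41 RPKM in cec-4. cpar-1, a paralog of the centromeric histone gene, was chosen after values were seen and was at 9.70 RPKM in met-2 set-25 and 0.710 RPKM in cec-4.

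Large families of protein degradation adaptors also held many genes higher in met-2 set-25, the F-box family with calls in both directions. MATH and BTB domain proteins bring substrates to ubiquitin ligases built on cullin 3. Of 68 included MATH and BTB genes 21 were higher and 1 was lower, and all 21 lie on chromosome II. The share of all 68 that lies on chromosome II is not given here, so this is not a result about position. bath-2 was at 21.2 RPKM in met-2 set-25, against 1.06 RPKM in cec-4, 1.35 RPKM in dpy-27(RNAi) and 0.814 RPKM in wild type (19.2-fold), and bath-30 was at 19.99 RPKM in met-2 set-25 and 1.10 RPKM in cec-4. The lower gene was math-46 on chromosome I, at 0.630 RPKM in met-2 set-25 and 3.06 RPKM in cec-4. For 19 of the 21 higher genes dpy-27(RNAi) and wild type both lay nearer to cec-4. The genes named bath, counted after values were seen, made up 16 of the 21. Over the 59 MATH and BTB genes annotated as protein-coding 17 were higher and 1 was lower, and of the 36 with a mean above 5 RPKM 6 were higher. The median of the 68 was 0.22, with 0.19 for levels above 1 RPKM in each mutant and 0.15 for a mean above 5 RPKM. The bath median was 0.86, but 0.27 with levels above 1 RPKM in each mutant and 0.20 with a mean above 5 RPKM.

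F-box proteins recruit substrates to the Skp1 and cullin ligases. Of 160 included F-box genes of classes A, B and C 22 (13.75%) were higher and 9 (5.625%) were lower, with a median of 0.08. fbxb-38 was at 10.3 RPKM in met-2 set-25 and 0.710 RPKM in cec-4, and fbxa-114 at 33.8 RPKM in met-2 set-25 and 3.89 RPKM in cec-4. Next to fbxa-114 on chromosome V lies fog-2, an F-box gene that promotes sperm production in hermaphrodites, at 11.1 RPKM in met-2 set-25, against 1.24 RPKM in cec-4, 1.56 RPKM in dpy-27(RNAi) and 0.858 RPKM in wild type. Of the 9 lower F-box genes 6 lie on chromosome III, among them fbxa-77 at 5.55 RPKM in met-2 set-25 and 19.4 RPKM in cec-4, and none of the 22 higher ones does. The share of all 160 on chromosome III is not given here either. Among 11 Skp1-related genes only skr-2 was called, at 52.6 RPKM in met-2 set-25 and 12.1 RPKM in cec-4. Over the 129 F-box genes annotated as protein-coding 20 were higher and 9 were lower. Over the 67 F-box genes with a mean above 5 RPKM 6 were higher and 4 were lower, with a median of -0.03. The family holds many close paralogs, and reads could be split among them.

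Smaller sets gave single genes or pairs. All 5 included enu-3 genes were higher, with enu-3.2 at 24.2 RPKM in met-2 set-25, against 1.36 RPKM in cec-4, 1.53 RPKM in dpy-27(RNAi) and 1.33 RPKM in wild type. This set was chosen after values were seen. The homeobox genes ceh-99, ceh-92 and ceh-91 were the only ones called among 48, with ratios of 2.92, 2.62 and 1.35. vha-7 and vha-18 were higher among 20 vacuolar ATPase genes, with vha-7 at 38.7 RPKM in met-2 set-25 and 10.2 RPKM in cec-4. Of 133 chemoreceptor genes 7 were higher and 7 were lower, close to the background on both sides, with sri-31 at 40.1 RPKM in met-2 set-25 and 1.05 RPKM in cec-4 at the upper end. Of 37 zinc finger and bHLH factors only ztf-15 was called, with a ratio of 1.45.

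The pals genes behaved differently from these groups. They are known from the response to intracellular pathogens, and the set was chosen after values were seen. Of 24 included pals genes 8 were higher and none was lower, yet for 6 of the 8 it was dpy-27(RNAi) that lay with met-2 set-25, and wild type that lay with cec-4. F22G12.1, named pals-14 in the current annotation, was at 5.48 RPKM in met-2 set-25, against 1.35 RPKM in cec-4, 9.11 RPKM in dpy-27(RNAi) and 1.92 RPKM in wild type. C17H1.6, named pals-5 and widely used as a reporter of this response, was at 1.98 RPKM in met-2 set-25, against 0.337 RPKM in cec-4, 2.93 RPKM in dpy-27(RNAi) and 0.542 RPKM in wild type. Most of these levels were low, and with the filter raised to a mean above 5 RPKM the median of the set was -0.10 in place of 0.50.

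Among protein-coding genes above 0 in both mutants with a mean above 5 RPKM, the 4 largest ratios belonged to genes with a sequence name only. F15D4.5 on chromosome II was at 322 RPKM in met-2 set-25, against 6.43 RPKM in cec-4, 7.02 RPKM in dpy-27(RNAi) and 7.33 RPKM in wild type, a 51.6-fold difference. Its neighbour F15D4.6 was at 54.8 RPKM in met-2 set-25 and 2.34 RPKM in cec-4. C55C3.3 on chromosome IV was at 15.6 RPKM in met-2 set-25 and 0.123 RPKM in cec-4, which gave the largest ratio of these, 6.21. All 3 were low in the other 3 groups alike. Of the 6648 included protein-coding genes that carry only a sequence name, 5.54% were higher and 5.45% were lower, against 3.37% higher and 3.52% lower among 6647 genes with a gene name. Of 486 pseudogenes 120 (24.7%) were higher and 47 (9.67%) were lower. Y38H8A.8 was 1 of them, at 61.9 RPKM in met-2 set-25, against 1.81 RPKM in cec-4, 2.12 RPKM in dpy-27(RNAi) and 1.70 RPKM in wild type.

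**Figure D3:**
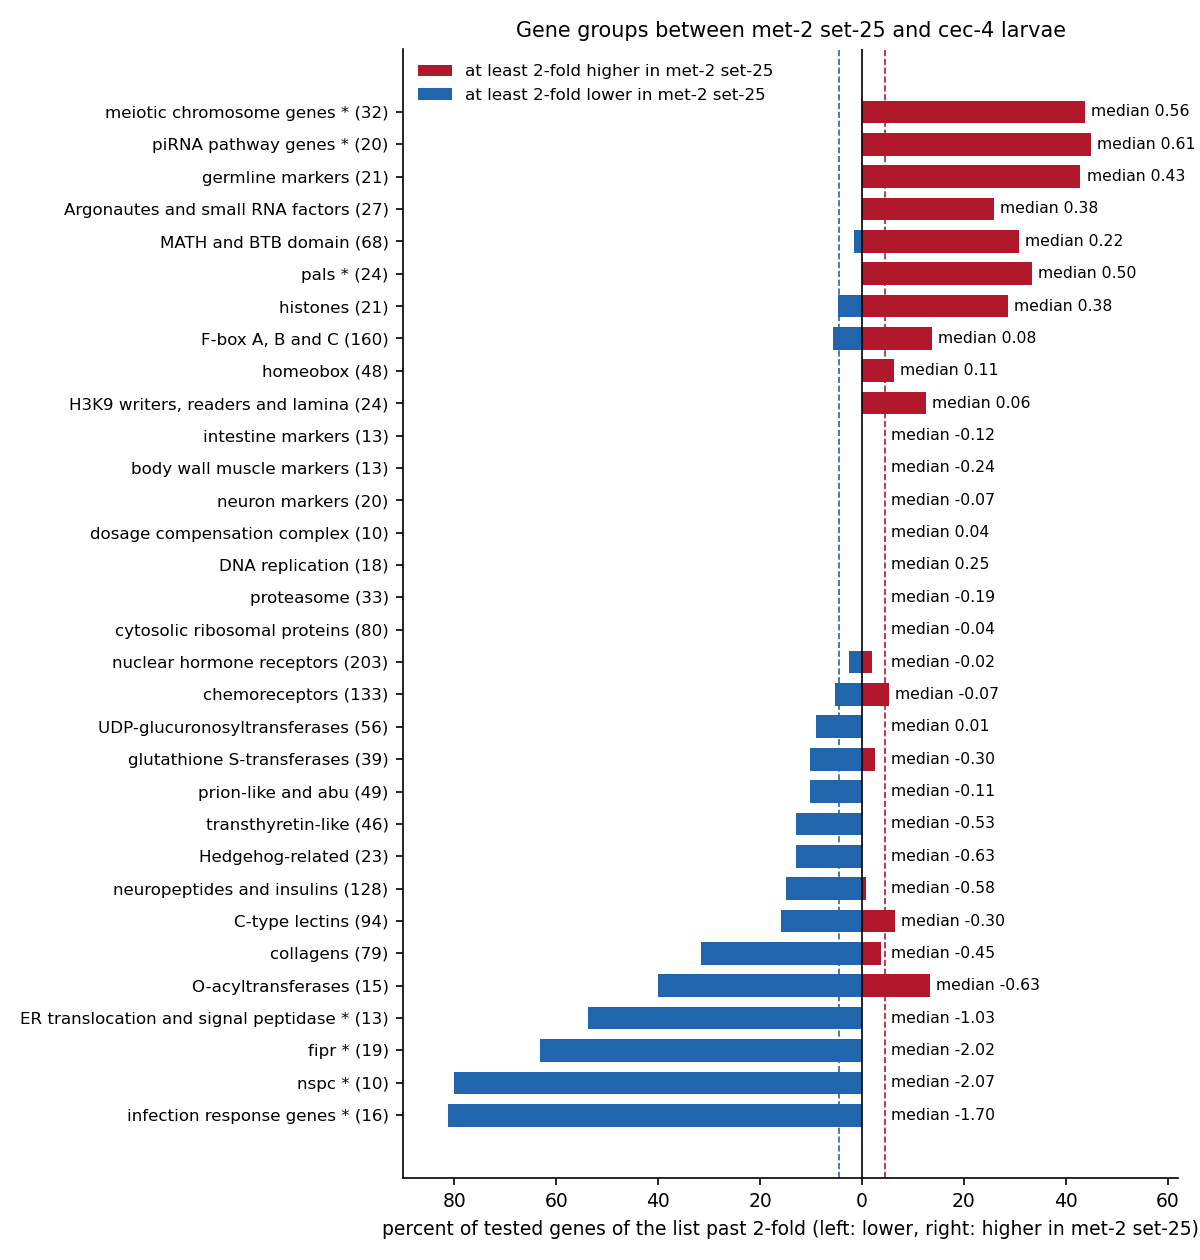
Share of the included genes of each group, with their number in brackets, that were at least 2-fold higher (red, right) or lower (blue, left) in met-2 set-25 than in cec-4, with the median centred log2 ratio beside each bar. Dashed lines are the shares over all protein-coding genes, 4.45% higher and 4.48% lower. A star marks lists chosen after values were seen, and the others were chosen with earlier results of these data known. Germline, small RNA and MATH and BTB genes extend to the right, and infection response genes, fipr, nspc and endoplasmic reticulum translocation genes extend to the left. Of the fipr genes with a mean above 5 RPKM 1 of 7 was lower.

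Before the genes lower in met-2 set-25 are described, a relation with gene length has to be given, since many of them are short. The median ratio of protein-coding genes was -0.23 under 500 exonic bases, -0.11 from 500 to under 1000, -0.02 from 1000 to under 1500, 0.04 from 1500 to under 2500 and 0.10 at 2500 or more. Under 500 bases 16.7% were lower and 8.33% were higher, and at 2500 or more 0.574% were lower and 2.83% were higher. The difference was seen wherever met-2 set-25 was on top, with medians of -0.35 for the shortest and 0.17 for the longest class over dpy-27(RNAi), and -0.35 and 0.14 over wild type. For cec-4 over wild type the medians were -0.05 and 0.05. Gene length thus moved with the ratio, and what lies behind this was not tested. For the groups of short genes the median after centring protein-coding genes within 20 bins of exonic length is given as well.

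Inducible heat shock genes lay on the cec-4 side. Of 9 included genes 5 were lower in met-2 set-25 and none was higher, with a median of -1.32 (-1.42 within length bins). Of the 8 with a mean above 5 RPKM 4 were lower, with a median of -0.63. hsp-16.11, a small heat shock protein gene, was at 4.58 RPKM in met-2 set-25, against 36.2 RPKM in cec-4, 31.8 RPKM in dpy-27(RNAi) and 4.32 RPKM in wild type, a 7.40-fold difference. hsp-16.2 was at 4.05 RPKM in met-2 set-25, against 17.6 RPKM in cec-4, 13.7 RPKM in dpy-27(RNAi) and 3.16 RPKM in wild type. hsp-16.41 was at 2.40 RPKM in met-2 set-25, against 15.4 RPKM in cec-4, 9.91 RPKM in dpy-27(RNAi) and 2.15 RPKM in wild type. F44E5.4, an inducible HSP70 gene, was at 0.561 RPKM in met-2 set-25, against 4.91 RPKM in cec-4, 3.44 RPKM in dpy-27(RNAi) and 0.470 RPKM in wild type. For these 4 genes met-2 set-25 lay with wild type, and cec-4 lay with dpy-27(RNAi). The near-identical copies hsp-16.1, hsp-16.48 and hsp-16.49 were listed at 0 in every group, so the hsp-16 values may stand for more than the named gene. The other 4 included genes were above 0, with ratios of 0.85 for the small heat shock protein gene hsp-12.6, 0.08 for daf-21 (HSP90), and 0.37 and 0.41 for the mitochondrial chaperone genes hsp-6 and hsp-60.

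hsp-4, the remaining gene of these, encodes the inducible HSP70 of the endoplasmic reticulum (ER) and followed another order, at 21.5 RPKM in met-2 set-25, against 56.5 RPKM in cec-4, 27.9 RPKM in dpy-27(RNAi) and 31.5 RPKM in wild type. Other ER genes were lower as well. Of 13 genes for translocation into the ER and signal peptide cleavage, chosen after values were seen, 7 were lower and none was higher, with a median of -1.03 with and without length bins and of -0.67 over those of 1000 exonic bases or more. trap-3, a subunit of the translocon-associated protein complex, was at 83.7 RPKM in met-2 set-25, against 246 RPKM in cec-4, 179 RPKM in dpy-27(RNAi) and 276 RPKM in wild type. trap-1, trap-2 and trap-4 had ratios of -1.38, -1.22 and -1.13. The channel genes sec-61, emo-1 and Y38F2AR.9 had -1.03, -1.34 and -1.33, with emo-1 at 200.4 RPKM in met-2 set-25, against 532 RPKM in cec-4, 357 RPKM in dpy-27(RNAi) and 527 RPKM in wild type. For all 7 both dpy-27(RNAi) and wild type lay nearer to cec-4, so here met-2 set-25 was the group apart. Among 11 ER chaperone genes, also chosen after values were seen, hsp-4 and pdi-2 were lower and 10 of 11 were below 0, with pdi-2 at 240.0 RPKM in met-2 set-25 and 511 RPKM in cec-4.

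Infection response genes, induced by bacterial pathogens through the p38 kinase and related pathways, formed another group on the cec-4 side. The list was chosen after values were seen. Of 16 included genes 13 were lower in met-2 set-25 and none was higher, with a median of -1.70 (-1.62 within length bins), and cec-4 was the highest of the 4 groups for 10 of the 13. T24B8.5, a widely used p38 target, was at 3.41 RPKM in met-2 set-25, against 57.0 RPKM in cec-4, 11.3 RPKM in dpy-27(RNAi) and 3.76 RPKM in wild type, a 15.5-fold difference. F35B12.4 was at 6.35 RPKM in met-2 set-25, against 112 RPKM in cec-4, 20.8 RPKM in dpy-27(RNAi) and 49.97 RPKM in wild type. irg-1 was at 7.74 RPKM in met-2 set-25, against 29.0 RPKM in cec-4, 9.81 RPKM in dpy-27(RNAi) and 10.1 RPKM in wild type. lys-7, a lysozyme gene, was at 33.7 RPKM in met-2 set-25, against 107 RPKM in cec-4, 54.1 RPKM in dpy-27(RNAi) and 32.9 RPKM in wild type. irg-3 differed, at 47.9 RPKM in met-2 set-25, against 109 RPKM in cec-4, since both were below the 229 RPKM of wild type. The 3 genes not called were dod-24, with a ratio of 0.90, dod-22 with -0.19 and F35E12.5 with -0.80.

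**Figure D4:**
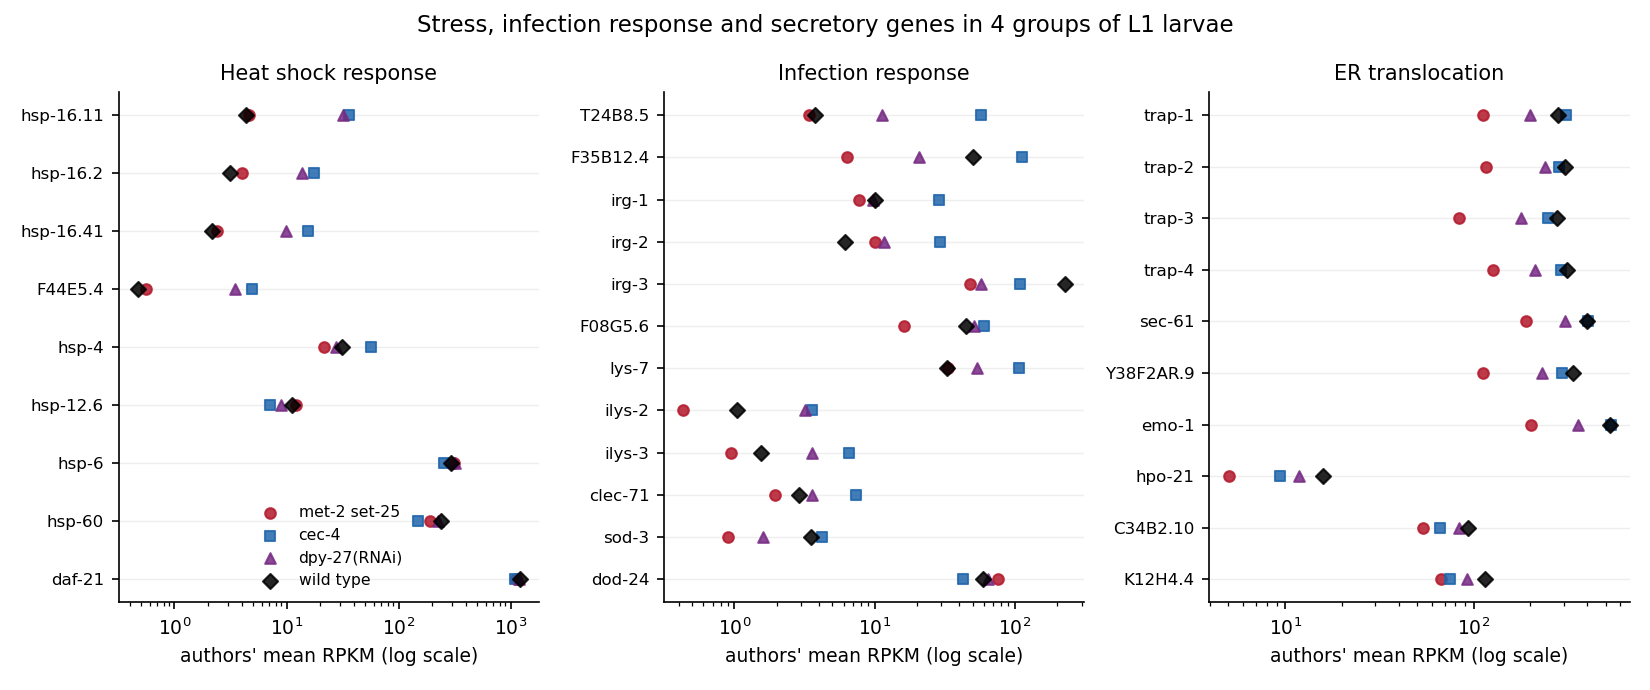
Levels of genes of the heat shock, infection response and ER translocation lists, as the authors' mean RPKM on log scales, in met-2 set-25 (circles), cec-4 (squares), dpy-27(RNAi) (triangles) and wild type (diamonds). For hsp-16.11 cec-4 at 36.2 RPKM sat beside dpy-27(RNAi) at 31.8 RPKM, for T24B8.5 cec-4 at 57.0 RPKM sat above all others, and for trap-3 met-2 set-25 at 83.7 RPKM sat below all others.

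Lysozymes and antimicrobial peptides as a wider family held 71 included genes, of which 2 were higher and 23 were lower, with a median of -0.69 (-0.47 within length bins). The 12 lower genes named fipr, short secreted peptide genes, were counted within them, out of 19 included, with a median of -2.02 (-1.78 within length bins). This rested on members at low levels, since the median was -0.58 with levels above 1 RPKM in each mutant and -0.06 over the 7 with a mean above 5 RPKM, of which 1 was lower. fipr-4 was at 1.31 RPKM in met-2 set-25, against 12.5 RPKM in cec-4, 5.48 RPKM in dpy-27(RNAi) and 9.39 RPKM in wild type, while the abundant fipr-21 was at 204 RPKM in met-2 set-25 and 318 RPKM in cec-4 (-0.57). The 2 higher genes were lys-5, at 12.9 RPKM in met-2 set-25 and 3.67 RPKM in cec-4, and abf-1, with a ratio of 1.14. For lys-5 the dpy-27(RNAi) and wild type levels of 17.1 and 16.21 RPKM lay on the side of met-2 set-25. Of 94 C-type lectins, secreted or membrane proteins with a carbohydrate-binding fold, 6 were higher and 15 were lower. clec-41 was at 21.9 RPKM in met-2 set-25, against 103 RPKM in cec-4, 39.3 RPKM in dpy-27(RNAi) and 17.3 RPKM in wild type, and clec-126 at 4.75 RPKM in met-2 set-25 and 0.502 RPKM in cec-4 stood at the other end.

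nspc and pud genes, both found in the values and then counted, encode short peptides and small proteins whose functions are poorly known. Of 10 included nspc genes, all on the X chromosome, 8 were lower and none was higher, with a median of -2.07 (-1.83 within length bins). nspc-14 was at 5.001 RPKM in met-2 set-25, against 60.2 RPKM in cec-4, 21.7 RPKM in dpy-27(RNAi) and 68.1 RPKM in wild type. All 4 included pud genes were lower, with a median of -2.48 (-2.31 within length bins). pud-3 was at 4.13 RPKM in met-2 set-25, against 71.1 RPKM in cec-4, 18.3 RPKM in dpy-27(RNAi) and 634 RPKM in wild type, so that cec-4 was itself far below wild type. pud-1.2 and pud-4 lie next to pud-3 and gave the same order of the 4 groups.

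Cuticle collagens gave the most lower genes of any list. Of 79 included collagen genes 25 (31.6%) were lower in met-2 set-25 and 3 were higher, with a median of -0.45 (-0.41 within length bins). The median was -0.23 over the 39 with a mean above 5 RPKM, of which 11 were lower and 1 was higher, -0.27 with no level filter and -0.26 over those of 1000 exonic bases or more. For 16 of the 25 both dpy-27(RNAi) and wild type lay nearer to met-2 set-25, and cec-4 was the highest group for 24. col-109 was at 2.63 RPKM in met-2 set-25, against 14.2 RPKM in cec-4, 4.82 RPKM in dpy-27(RNAi) and 2.84 RPKM in wild type. col-97 was at 4.74 RPKM in met-2 set-25, against 21.1 RPKM in cec-4, 8.48 RPKM in dpy-27(RNAi) and 4.74 RPKM in wild type. The largest exception was col-111, at 18.4 RPKM in met-2 set-25 and 2.83 RPKM in cec-4. Hedgehog-related genes, which encode secreted cuticle-associated proteins in this species, gave 3 lower of 23 and a median of -0.63 (-0.50 within length bins, -0.34 with no level filter), with grl-21 at 5.96 RPKM in met-2 set-25, against 63.7 RPKM in cec-4, 15.2 RPKM in dpy-27(RNAi) and 8.79 RPKM in wild type. Of 18 astacin metalloproteases nas-38 and nas-33 were lower, and of 49 prion-like and abu genes 5 were lower, with abu-10 at 3.45 RPKM in met-2 set-25 and 10.9 RPKM in cec-4. Patched-related genes had none past 2-fold among 21.

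Secreted signals of the nervous system and gut were lower as a family. Of 128 included neuropeptide and insulin genes 19 were lower and 1 was higher, and 117 were below 0, with a median of -0.58. Within length bins the median was -0.43 and 13 were lower. nlp-25 was at 8.43 RPKM in met-2 set-25, against 47.3 RPKM in cec-4, 30.6 RPKM in dpy-27(RNAi) and 27.9 RPKM in wild type. flp-20, an FMRFamide-like peptide gene of touch neurons, was at 61.5 RPKM in met-2 set-25, against 222 RPKM in cec-4, 97.3 RPKM in dpy-27(RNAi) and 159 RPKM in wild type. ins-7, an insulin gene of the gut and neurons, was at 0.428 RPKM in met-2 set-25 and 2.79 RPKM in cec-4, and ins-11 was at 4.44 RPKM in met-2 set-25 and 20.8 RPKM in cec-4. The single higher gene was ins-36, at 1.99 RPKM in met-2 set-25 and 0.365 RPKM in cec-4. egl-3 and egl-21, whose enzymes process neuropeptides, had ratios of -0.41 and -0.48. Transthyretin-like genes, another secreted family, gave 6 lower of 46 and a median of -0.53 (-0.34 within length bins), with ttr-45 at 22.8 RPKM in met-2 set-25, against 86.2 RPKM in cec-4, 35.1 RPKM in dpy-27(RNAi) and 68.2 RPKM in wild type.

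Metabolic and detoxification families were mixed. Of 15 O-acyltransferase genes 6 were lower and 2 were higher, with oac-20 at 0.331 RPKM in met-2 set-25 and 3.00 RPKM in cec-4 and oac-49 with a ratio of 1.65. These genes are long, and their median was -0.63 before and -0.72 after centring within length bins, and -0.32 with no level filter. Of 56 UDP-glucuronosyltransferases 5 were lower and none was higher, with ugt-29 at 11.3 RPKM in met-2 set-25, against 42.8 RPKM in cec-4, 11.4018 RPKM in dpy-27(RNAi) and 3.93 RPKM in wild type. The glutathione S-transferases gave 4 lower and 1 higher of 39, with a median of -0.30 (-0.20 within length bins), and the higher gene was gst-24, at 144 RPKM in met-2 set-25 and 60.1 RPKM in cec-4. Of 31 ABC transporters pgp-5, pgp-7 and pgp-13 were lower. elo-6, which elongates branched-chain fatty acids, was at 78.8 RPKM in met-2 set-25, against 205 RPKM in cec-4, 174 RPKM in dpy-27(RNAi) and 299 RPKM in wild type, and was lower together with fat-5 among 39 fatty acid genes, while acs-2 was higher. Cytochrome P450 genes gave 1 higher and 2 lower of 43, gut proteases 2 and 2 of 22, short-chain dehydrogenases 0 and 1 of 29, and nuclear hormone receptors 4 and 5 of 203.

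Housekeeping groups had medians from -0.19 to 0.25. None was past 2-fold among 80 cytosolic ribosomal proteins (median -0.04, but 0.10 within length bins) and 70 mitochondrial ribosomal proteins (0.23, and 0.33 within length bins). The same held for 33 proteasome subunits (-0.19), 19 oxidative phosphorylation genes (0.02), 12 tubulins (0.04) and 18 DNA replication genes (0.25). Outside the housekeeping groups, 13 molting genes also had none past 2-fold, with a median of 0.00 (-0.11 within length bins). The proteasome genes lay within a narrow band, from -0.34 to -0.01, so all 33 were below 0. Of the 70 mitochondrial ribosomal protein genes 65 were above 0. Among the fasting response genes acs-2 was higher and fat-5 lower of 12, and 1 of 60 ligand-gated ion channel genes was lower.

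Among the single genes with the smallest ratios were several outside these families. F55G11.4 on chromosome IV was at 3.49 RPKM in met-2 set-25, against 85.8 RPKM in cec-4, 8.19 RPKM in dpy-27(RNAi) and 4.18 RPKM in wild type, a 22.8-fold difference. dct-19, on the same chromosome, was at 0.865 RPKM in met-2 set-25, against 16.52 RPKM in cec-4, 6.32 RPKM in dpy-27(RNAi) and 4.62 RPKM in wild type. srw-85, a chemoreceptor gene by its sequence, was at 16.9 RPKM in met-2 set-25, against 264 RPKM in cec-4, 180.2 RPKM in dpy-27(RNAi) and 189.5 RPKM in wild type. F55G11.4 was thus high in cec-4 alone, and srw-85 was low in met-2 set-25 alone. ech-9, an enzyme of fatty acid breakdown by its sequence, was at 2.63 RPKM in met-2 set-25, against 21.4 RPKM in cec-4, 5.67 RPKM in dpy-27(RNAi) and 1.16 RPKM in wild type.

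The other groups of larvae placed the called genes as a whole. Of the 592 protein-coding genes higher in met-2 set-25, dpy-27(RNAi) and wild type both lay nearer to cec-4 for 428 (72.3%) and both nearer to met-2 set-25 for 68 (11.5%). Of the 596 lower genes both lay nearer to cec-4 for 186 (31.2%) and nearer to met-2 set-25 for 211 (35.4%), and the remaining 33.4% were split. The higher genes were therefore mostly high in met-2 set-25 alone, whereas the lower genes were of mixed origin. Higher genes had a median level of 7.19 RPKM in met-2 set-25 and 1.72 RPKM in cec-4 and a median exonic length of 1145 bases, and lower genes 2.47 RPKM in met-2 set-25 and 7.93 RPKM in cec-4 and 770 bases. Calls came mostly from weakly expressed genes, since 10.4% of the 2659 lowest protein-coding genes by level (mean up to 4.25 RPKM) were higher and 9.74% lower, against 0.827% higher and 2.63% lower in the 2659 highest (from 49.1 RPKM).

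Positions on the chromosomes were taken from the Ensembl annotation of the WBcel235 assembly. On the autosomes 565 of 11270 protein-coding genes (5.01%) were higher, against 27 of 2013 (1.34%) on the X chromosome, while lower genes made up 4.53% on autosomes and 4.22% on the X. The X median lay 0.05 below the autosome median over all genes, a small shift in comparison. It was not particular to the X, since the median over all genes was -0.044 on chromosome V and -0.035 on the X. On the arms of the autosomes, taken as the outer 25% of each chromosome on either side, 348 of 4438 genes (7.84%) were higher, against 217 of 6832 (3.18%) in the centres. Lower genes made up 5.43% on the arms and 3.95% in the centres. The medians differed little, with the arms 0.02 below the centres, so the difference lay in the called genes and not in a shift of all genes. Chromosome II showed the largest contrast, with 10.5% of arm genes and 2.65% of centre genes higher. On this chromosome lie 21 higher MATH and BTB genes and 8 higher F-box genes, counted over all gene classes. Many lie side by side, in a run of up to 10 higher genes, so they are not separate observations. Expression level was not compared between arms and centres. On the X 1.65% of arm genes and 1.09% of centre genes were higher, with the left and right arms pooled. Among X-linked genes above 0 in both mutants with a mean above 5 RPKM, F28H6.8 had a high ratio, at 10.4 RPKM in met-2 set-25 and 0.299998 RPKM in cec-4, as did C56G3.2, at 18.2 RPKM in met-2 set-25 and 1.05 RPKM in cec-4. Among the same genes C45B2.8 had a low ratio, at 1.18 RPKM in met-2 set-25 and 20.5 RPKM in cec-4.

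**Figure D5:**
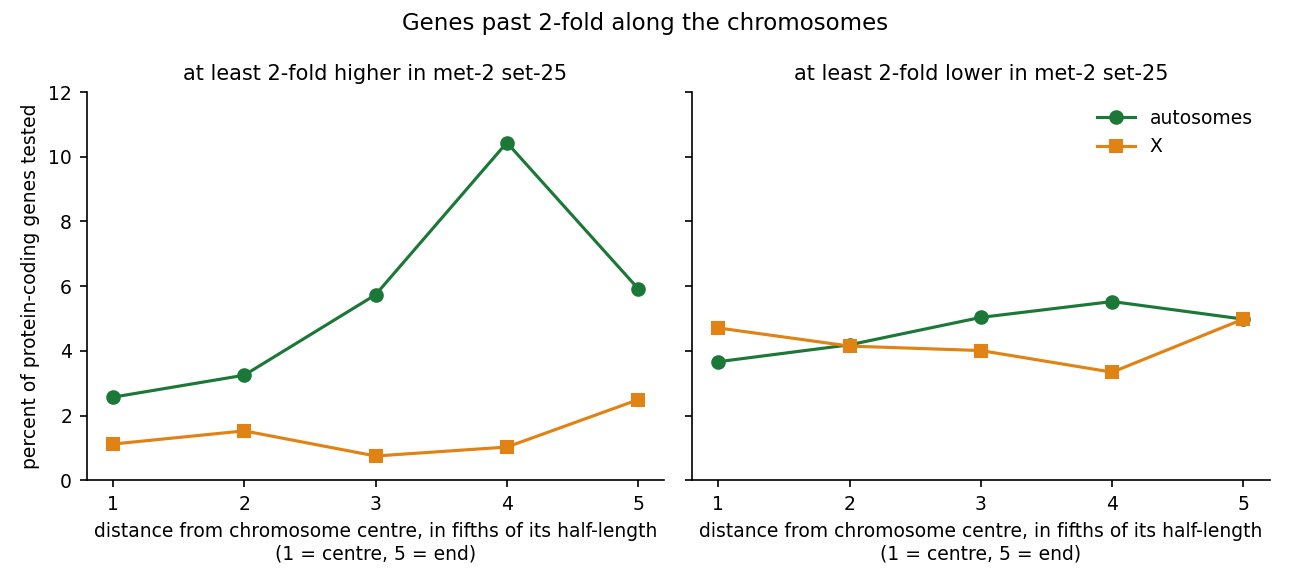
Percent of included protein-coding genes at least 2-fold higher (left) or lower (right) in met-2 set-25 than in cec-4, by distance from the chromosome centre in 5 equal steps out to the end, for the autosomes (circles) and the X chromosome (squares). The share of higher autosomal genes was 2.57% at the centre, 10.4% in step 4 and 5.92% at the ends, against 1.12%, 1.03% and 2.49% on the X, and the share of lower autosomal genes lay between 3.67% and 5.52%.

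Called genes often lay side by side. Of the 592 higher genes 236 (39.9%) had an adjacent included protein-coding gene that was also higher, against 8.28% of all included protein-coding genes. Of the 596 lower genes 170 (28.5%) had an adjacent lower gene, against 8.57% of all. Neighbouring genes can be paralogs, can share an operon or can overlap, and with unstranded libraries reads of overlapping genes cannot be told apart. Runs of at least 3 adjacent higher genes numbered 26, with 100 genes in them and 7 of the runs on chromosome II. Runs of lower genes numbered 14, with 48 genes in them and 8 of the runs on chromosome V. For comparison, chromosome II held 128 of the 592 higher genes and chromosome V 208 of the 596 lower genes.

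The longest run held 10 genes on chromosome II from 2014902 to 2046656 (31.8 kb), namely bath-21, cya-2, bath-1, bath-3, bath-5, btb-4, bath-19, bath-20, bath-24 and math-1, with ratios from 1.40 to 3.77. cya-2, a cyclin A gene by its name, was at 12.1 RPKM in met-2 set-25, against 1.23 RPKM in cec-4, 1.98 RPKM in dpy-27(RNAi) and 1.71 RPKM in wild type. A second run of 7 genes on the same arm held bath-28, bath-30 and bath-29 among sequence-named genes. On chromosome III the run T28A8.6, T28A8.5, T28A8.8, T28A8.4 and T28A8.3 had ratios from 3.37 to 4.11, with T28A8.5 at 82.7 RPKM in met-2 set-25, against 4.92 RPKM in cec-4, 10.4 RPKM in dpy-27(RNAi) and 10.4 RPKM in wild type. On chromosome II the germline stem cell regulators fbf-1 and fbf-2 formed a run with F21H12.7, with ratios of 1.45 for fbf-1 and 1.56 for fbf-2, and these near-identical genes could share reads. The longest run of lower genes held 5 genes on chromosome V, K09D9.1, C49G7.7, C49G7.12, C49G7.10 and irg-2, with ratios from -1.87 to -1.30. irg-2 is an infection response gene, and was at 10.0 RPKM in met-2 set-25, against 29.3 RPKM in cec-4, 11.7 RPKM in dpy-27(RNAi) and 6.18 RPKM in wild type.

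Variants linked to the mutations can travel with them through strain construction, so genes near the mutated loci were counted apart. Within 1 Mb of set-25 on chromosome III, 16 of 191 protein-coding genes (8.38%) were higher, against 3.29% on the rest of that chromosome. All 191 lie on an arm, and of the other 642 genes on the arms of chromosome III 33 (5.14%) were higher. The T28A8 run, the run of Y111B2A.1, Y111B2A.2 and Y111B2A.3, and snpc-1.2 lie within 1 Mb of set-25. Within 1 Mb of met-2 8 of 356 (2.25%) were higher, lin-13 among them, against 4.05% on the rest of chromosome III. Within 1 Mb of cec-4 on chromosome IV 19 of 318 (5.97%) were lower, against 5.04% on the rest of that chromosome. The higher genes his-60, his-61 and his-62 also lie within 1 Mb of cec-4. C50F7.5, which lies within this interval, was at 32.5 RPKM in met-2 set-25, against 309 RPKM in cec-4, 58.0 RPKM in dpy-27(RNAi) and 12.1 RPKM in wild type. Whether linked variants have a part in these values was not tested.

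Genes listed at 0 in 1 mutant only numbered 412 at 0 in met-2 set-25 and 340 at 0 in cec-4, and 406 and 331 of these had under 200 exonic bases. The highest of them, R04E5.15, was a noncoding RNA of 51 bases at 173 RPKM in met-2 set-25 and listed at 0 in cec-4 and in wild type, and C17D12.11, of 53 bases, was listed at 0 in met-2 set-25, against 99.97 RPKM in cec-4, and at 0 in wild type. Of protein-coding genes 12 were at 0 in met-2 set-25 only and 7 in cec-4 only. fipr-15 was among these 12, with 5.25 RPKM in cec-4, 2.70 RPKM in dpy-27(RNAi) and 3.62 RPKM in wild type.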

How the data were processed

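RNA selected for polyA tails was sequenced from unstranded libraries of 13 L1 samples, of which 6 entered the comparison. Per the sources used here the authors trimmed reads with Trim Galore, aligned them with TopHat2 (version 2.0.13, up to 20 hits per read) and obtained FPKM values, named RPKM in the study, with Cufflinks (2.2.1), counted reads with HTSeq (0.6.0) and tested them with DESeq2 (1.6.3) in R (3.2.3). The FPKM values deposited by the authors are group means on a linear scale, and 0 columns held values of single libraries, so depth is unknown and no test, SD or interval could be made. A second deposited table holds the authors' own log2 fold changes and adjusted p-values against wild type and was not used.

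Log2 ratios were computed after adding a pseudocount of 0.1 and centred on the median of genes with a mean above 1, with 2-fold as the threshold. Gene classes, exonic lengths and positions came from Ensembl release 115 (WBcel235), in which 45871 of 46170 identifiers were found and 299 were not, 155 of these among the included genes. Arms were the outer 25% of each chromosome on either side. The rule for named genes took the 20 largest and 20 smallest ratios among genes with a mean above 5, and further members of lists were named after values were seen. The groups and 50 lists were chosen with earlier results of these data known, and 11 lists after values were seen. Near-identical paralogs are uncertain, since reads with several hits could be split. Alternatives covered the pseudocount, level filter, centring, threshold, gene class and arm width. Computations used Python 3.11.15, numpy 2.4.6, pandas 2.3.3 and matplotlib 3.10.9 and were tested on simulated data. A gene of the ER translocation list is counted in it but not reported here by itself.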

Additional observations from a re-analysis of the deposited data

How the results depend on the processing

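The main counts were 1381 higher and 1317 lower. They became 622 and 561 with a mean above 5, 771 and 697 with levels above 1 in each mutant, 2384 and 2443 with no filter, 593 and 594 with protein-coding genes only, 2162 and 2309 at 1.5-fold and 723 and 592 at 4-fold. Of alternatives chosen after seeing the data, protein-coding genes of 1000 exonic bases or more gave 350 and 226, and protein-coding genes centred within length bins, which changes 2 choices at once, gave 618 and 527, close to the protein-coding counts without bins. Other pseudocounts (1143 and 1043 with 1, 1414 and 1359 with 0.01) and centrings (1310 and 1439 without) stayed within 1.5 times. The X median lay 0.05 below that of the autosomes and the arm median 0.02 below that of the centres. These differences were -0.041 and -0.016 with a pseudocount of 1, -0.046 and -0.017 with 0.01, -0.048 and -0.035 with a mean above 5, -0.041 and -0.027 with levels above 1 in each, -0.034 and -0.0076 with no filter, -0.055 and -0.027 in protein-coding genes, -0.058 and -0.032 in those of 1000 bases or more and -0.066 and -0.021 in protein-coding genes centred within length bins, and the arm difference was -0.011 with wider arms. Of 53 lists of 10 or more genes 23 had a median at least 0.25 from 0, and 17 to 26 did under the alternatives. Of 526 list medians under alternatives 449 moved by under 0.1. That count includes all 53 lists under each other centring, which was fixed in advance. A change of centring shifts every list by the same amount, here under 0.1. Among the 526 medians 27 changed sign. In 26 of these the main median lay within 0.25 of 0, and the other was that of the pals genes, -0.10 with a mean above 5.

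No paired analysis was possible because the columns hold group means only, and for the same reason leaving out single replicates was not done. Precision is limited most among weakly expressed and short genes, and how much of each difference is spread between replicates cannot be read from these values.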
